A study of Mus musculus with 8 samples.

Results

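Complement is a set of blood and tissue proteins that mark targets for uptake and call in immune cells, and 8 genes of this system were followed here, out of the 55357 genes in the table. They were chosen by name: the 3 chains of C1q (C1qa, C1qb and C1qc), the central component C3, the alternative pathway genes Cfb and Cfp, and the anaphylatoxin receptors C3ar1 and C5ar1. Bone marrow-derived macrophages (BMDM) of C57BL/6J mice, grown from marrow in macrophage colony-stimulating factor (M-CSF), received sphingosine d18:1, written So(d18:1), at 2 μM for 6 h, or methanol, in which the lipid was dissolved, for the same time. Polyadenylated RNA was sequenced from 4 Control and 4 So(d18:1) libraries. The labels name no inflammatory stimulus, whereas the text of the study places cells of this experiment under inflammatory stimulation, so the state of both groups is known only as far as these sources go. No label ties a library to its own mouse or culture, and p-values then measure the spread between these libraries, which may be in part technical.

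Most complement proteins in blood come from the liver, but C1q is made mainly by macrophages and related myeloid cells. C1q binds immune complexes and dying cells and starts the classical pathway, which leads to cleavage of C3. Factor B, encoded by Cfb, supplies the protease of the alternative pathway convertase, and properdin, encoded by Cfp, stabilises that enzyme. The fragments C3a and C5a released on the way act on macrophages and granulocytes through the receptors encoded by C3ar1 and C5ar1.

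Between 17748397 and 26088609 reads per library were counted on genes, and 14514 genes had enough counts to be tested. Levels are given as CPM, counts scaled to one common library total after TMM normalisation, which evens out differences in composition. Defining macrophage markers were abundant. Csf1r, the receptor for M-CSF, had means of 6234 CPM in Control libraries and 5986 CPM after So(d18:1), and Adgre1, the gene for F4/80, of 2213 and 2187 CPM. The 8 macrophage markers summed to between 30650 and 32994 CPM in Control and between 26524 and 31476 CPM in So(d18:1) libraries. On average 6 of the 8 were lower with So(d18:1), and 3 passed the test, of which 1 rose and 2 fell. Mertk (fold change on the log2 scale -0.38, adjusted p = 6.2e-06) and Cd68 (-0.22, adjusted p = 0.00349) fell. Itgam rose (0.18, adjusted p = 0.0119, all by edgeR). All 8 neutrophil markers were lower on average with So(d18:1) and 4 fell, with sums from 1682 to 2325 CPM in Control and from 1326 to 1506 CPM in So(d18:1). Monocyte markers summed to between 1174 and 1488 CPM in Control and between 1113 and 1233 CPM in So(d18:1), and 2 of 4 fell. Markers of dendritic cells (6.45 to 8.97 CPM over all libraries), T cells (13.7 to 25.5 CPM), B cells (99.1 to 143 CPM) and stromal cells (4.23 to 8.26 CPM) were low, none of these lists had a marker at 0 in every library, and 1 marker among them passed, Cd4, which fell, while the T cell receptor genes Cd3e, Cd3d and Cd3g had group means of at most 0.0778 CPM. The part of these cells in the values below was not tested, and in such bulk RNA fewer cells of a type and less RNA per cell cannot be told apart.

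With So(d18:1), none of the 7 members that could be tested passed an adjusted p of 0.05 in edgeR's quasi-likelihood test, against 8.94% of all genes tested (3.87% higher and 5.07% lower with So(d18:1)). The differences were small, with fold changes on the log2 scale between -0.38 and 0.22, and pointed both ways. The 3 C1q chains, C3 and C3ar1 were lower on average, and Cfp and C5ar1 were higher. At an unadjusted p under 0.05, a count added after seeing the data, it was 6 of 7, of which 2 were higher and 4 lower. Of all genes tested 23.4% reached this in either direction, 11.4% higher and 11.9% lower. The members were chosen with earlier results of these data known, and 3 of the 6 are the C1q chains. Without Control replicate 3 the count was 2, against 19.9% of all genes tested. No member passed the threshold in the methods of the study, an unadjusted p under 0.05 with a fold change of at least 1.5, which 3.89% of all genes tested passed (1.41% higher and 2.48% lower). The groups did not overlap for 1 member, C3, against 15.0% of all genes tested (7.14% higher and 7.87% lower). The median log2 fold change was -0.11 over the 7 members and 0.004 over all genes tested. By other tools 1 member passed in DESeq2 (C5ar1), which called 10.3% of all genes tested, and 2 each (C3 and C5ar1) in limma-voom (9.02% of all genes) and in edgeR's exact test (11.5%).

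**Figure D1:**
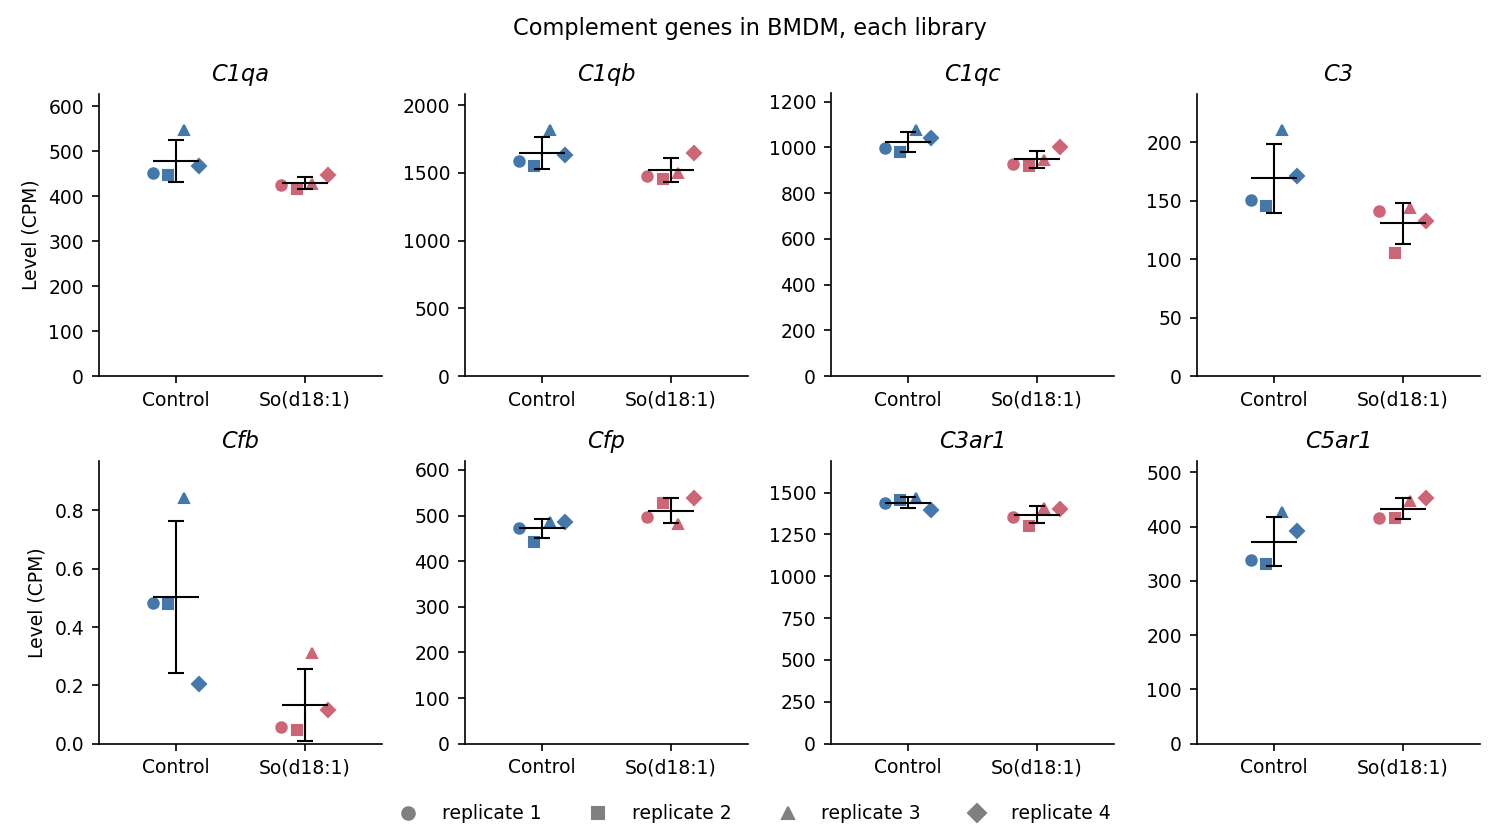
Level of each complement gene in CPM in the 4 Control (blue) and 4 So(d18:1) (red) libraries, with one symbol for each replicate number. Horizontal bars are means and error bars the SD of 4 libraries. C3 is the only gene whose groups do not overlap, and Control replicate 3 is the highest Control library in every panel.

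The order of the levels was compared per length, as TPM, counts divided by the exon length of the gene and scaled to one common total. In Control libraries C1qb stood first at 5255 TPM, followed by C1qc at 1841 TPM and C1qa at 1596 TPM, whose ranges overlapped. C3ar1 came next at 1164 TPM, then Cfp at 945 TPM and C5ar1 at 503 TPM. C3 followed at 114 TPM, and Cfb stood last at 0.616 TPM. The order with So(d18:1) was unchanged, from 4875 TPM for C1qb to 0.164 TPM for Cfb, and there the ranges of C3ar1 (1107 TPM) and Cfp (1026 TPM) overlapped while those of C1qc and C1qa did not. All other neighbours in both orders had separate ranges. C1qb exceeded C1qc 2.85-fold in each group, and C5ar1 exceeded C3 4.39-fold in Control and 6.63-fold in So(d18:1) libraries. Such folds depend on the length used, which was 1931 bases for C1qc (2 annotated transcripts), 1088 for C1qb and 1040 for C1qa (1 transcript each). In CPM the Control means were 1645 for C1qb, 1022 for C1qc and 478 for C1qa.

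**Figure D2:**
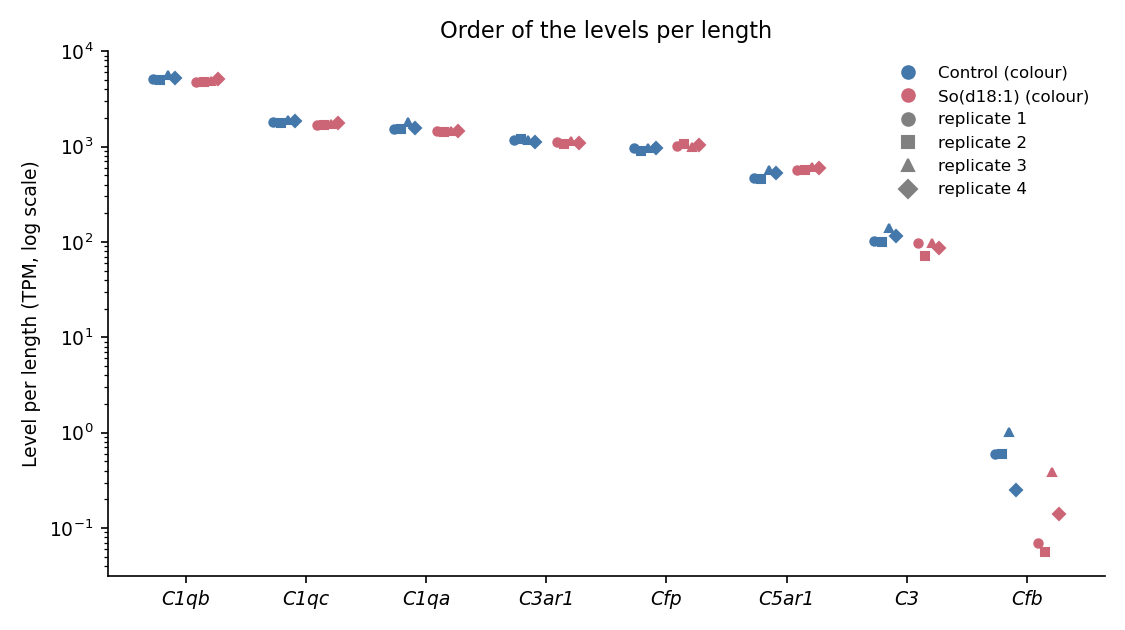
Level per length (TPM, log scale) of the 8 genes, ordered by their Control mean, with one point per library, Control in blue and So(d18:1) in red. Control means run from 5255 TPM for C1qb to 0.616 TPM for Cfb, with the same order in both groups.

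C1qa, C1qb and C1qc encode the chains that assemble into one C1q molecule, and they lie next to each other on the minus strand of chromosome 4 (GRCm38, the build called mm10). C1qb (ENSMUSG00000036905) spans 136880129 to 136886187, C1qc (ENSMUSG00000036896) 136889804 to 136893065 and C1qa (ENSMUSG00000036887) 136895917 to 136898803. No stretch of 50 bases of their transcripts occurs in another annotated gene. The 250 bases before the RefSeq start of C1qb, at chr4:136886201-136886450 on the minus strand of GRCm38.p6, are shown because the C1q genes were followed together with macrophage transcription factors described further on. Capitals mark the MAF half-site TGCTGA, 131 to 126 bases before the start, and the PU.1 core GAGGAA, 30 to 25 bases before it.
C1qb: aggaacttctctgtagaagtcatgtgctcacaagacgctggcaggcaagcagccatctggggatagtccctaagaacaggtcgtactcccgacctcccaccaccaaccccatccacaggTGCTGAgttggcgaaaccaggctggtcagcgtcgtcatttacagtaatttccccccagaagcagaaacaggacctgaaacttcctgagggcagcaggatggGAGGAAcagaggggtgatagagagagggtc

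C1qb had the highest level per length of the 8 genes. It read 1585, 1551, 1813 and 1631 CPM in Control replicates 1 to 4 and 1477, 1457, 1502 and 1649 CPM in So(d18:1) replicates 1 to 4. So(d18:1) replicate 4 lay within the Control range, while the other So(d18:1) libraries lay below every Control library. The fitted difference was -7.5% (95% confidence interval -14.2 to -0.267). On the log2 scale it was -0.11 (standard error, SE, 0.052, adjusted p = 0.197, edgeR).

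C1qa read 451, 446, 546 and 467 CPM in Control and 424, 416, 426 and 448 CPM in So(d18:1) libraries. The highest So(d18:1) library, replicate 4, lay just above the lowest Control library, replicate 2, and the groups overlapped there only. The means were 477.6 ± 46.5 and 428.5 ± 13.5 CPM (SD, n = 4), a fitted difference of -10.3% (95% confidence interval -17.2 to -2.75). The log2 fold change was -0.16 (SE 0.055), and its adjusted p by edgeR was 0.0893.

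C1qc read 997, 978, 1074 and 1040 CPM in Control and 927, 917, 943 and 1003 CPM in So(d18:1) libraries. Here again only So(d18:1) replicate 4 reached the Control range. The fitted difference was -7.31% (95% confidence interval -13.1 to -1.16). On the log2 scale it was -0.11 (SE 0.045, adjusted p = 0.137, edgeR).

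Together the 3 chains took 0.298% to 0.34% of all counts in Control and 0.282% to 0.306% in So(d18:1) libraries. The proportion between the chains was almost the same in both groups: C1qa stood at 0.303 ± 0.00783 of C1qb per length in Control and 0.295 ± 0.00742 in So(d18:1), and C1qc at 0.351 ± 0.0115 and 0.351 ± 0.00568 (SD, n = 4). Control replicate 3 had the highest level of each chain among Control libraries, 0.2, 0.14 and 0.07 above the Control mean on the log2 scale for C1qa, C1qb and C1qc. Without that library the log2 fold changes were -0.08 (C1qa, adjusted p = 0.297), -0.06 (C1qb, adjusted p = 0.527) and -0.08 (C1qc, adjusted p = 0.325, all by edgeR). Without Control replicate 2, C1qa alone passed, at -0.19 on the log2 scale (adjusted p = 0.0405, edgeR).

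C3 encodes the component on which all activation pathways converge. The gene (ENSMUSG00000024164) lies on the minus strand of chromosome 17 from 57203970 to 57228136. Its 250 bases before the RefSeq start, chr17:57228137-57228386 on the minus strand of GRCm38.p6, are shown because C3 had the largest fold change of the tested members. Capitals mark a MAF half-site on the opposite strand, 182 to 177 bases before the start, and a C/EBP motif (TTGCNNAA), 45 to 38 bases before it.
C3: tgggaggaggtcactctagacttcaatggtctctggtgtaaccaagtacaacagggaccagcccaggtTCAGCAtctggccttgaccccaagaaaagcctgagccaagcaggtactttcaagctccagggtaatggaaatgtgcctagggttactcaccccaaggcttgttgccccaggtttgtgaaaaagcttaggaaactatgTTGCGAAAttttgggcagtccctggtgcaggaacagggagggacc

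C3 read 150.4, 145.6, 210.3 and 171.6 CPM in Control and 141.3, 105.4, 143.6 and 132.4 CPM in So(d18:1) libraries. Every So(d18:1) library lay below every Control library, the closest being 143.6 and 145.6 CPM, and each group had an extreme of its own: Control replicate 3 was high and So(d18:1) replicate 2 was low. The exact permutation test of the 8 values gave p = 0.0286, the smallest that 4 against 4 libraries allow. In the fit the difference was -23.0% (95% confidence interval -40.2 to -0.807; log2 fold change -0.38, SE 0.15), and it did not pass after adjustment (adjusted p = 0.201, edgeR). It passed in 3 of 9 other settings, among them limma-voom (adjusted p = 0.0344) and edgeR's exact test (adjusted p = 0.00636). It did not by DESeq2 (adjusted p = 0.114) or with no filter on low counts (adjusted p = 0.353, edgeR). With 1 library left out C3 passed in 0 of 8 fits (adjusted p from 0.17 to 0.33, edgeR). Without Control replicate 3 its log2 fold change was -0.26 (adjusted p = 0.298, edgeR). The summed neutrophil markers, too, were highest in Control replicate 3 (2325 CPM) and lowest in So(d18:1) replicate 2 (1326 CPM). The summed markers of macrophages (32994 and 26524 CPM) and of T cells (25.5 and 13.7 CPM) had the same extremes. Those of monocytes, dendritic cells, B cells and stromal cells did not. The part of any of these cells in the C3 values was not tested.

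Cfb (ENSMUSG00000090231, chromosome 17 from 34856374 to 34862518, minus strand) was close to the detection limit. It had 10, 12, 20 and 5 reads in Control libraries and 1, 1, 6 and 3 reads in So(d18:1) libraries, that is 0.481, 0.478, 0.843 and 0.206 CPM against 0.0561, 0.0452, 0.312 and 0.116 CPM. Control replicate 4 lay below So(d18:1) replicate 3, so the groups overlapped. The group totals were 47 and 11 reads, and the log2 ratio of the mean CPM was -1.92 (exact permutation test of CPM, two-sided p = 0.0571). It was -1.55 without Control replicate 3 and -2.79 without So(d18:1) replicate 3, the range over the 8 libraries left out in turn. Cfb was excluded from the fit by the filter on low counts. With no filter edgeR put its log2 fold change at -1.9 (SE 0.58, adjusted p = 0.0225), a setting chosen for Cfb after its values were seen. Of its exon bases 79.5% also belong to Gm20547, a transcript annotated on the same strand that had 0 reads in all libraries, and how reads shared by overlapping genes were counted is not given in the sources used here, so the level of Cfb is uncertain.

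Cfp (ENSMUSG00000001128, chromosome X from 20925454 to 20931555, minus strand) encodes properdin, which macrophages and neutrophils release themselves. It read 473, 442, 487 and 486 CPM in Control and 496, 527, 481 and 539 CPM in So(d18:1) libraries. So(d18:1) replicate 3 lay inside the Control range and the other So(d18:1) libraries above it. The fitted difference was 8.28% (95% confidence interval 1.22 to 15.8). On the log2 scale it was 0.11 (SE 0.047, adjusted p = 0.137, edgeR).

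C3ar1 and C5ar1 encode G protein-coupled receptors for C3a and C5a. C3ar1 (ENSMUSG00000040552, chromosome 6 from 122847138 to 122856161, minus strand) read 1438, 1458, 1468 and 1396 CPM in Control and 1354, 1300, 1409 and 1402 CPM in So(d18:1) libraries. So(d18:1) replicates 3 and 4 exceeded Control replicate 4, and the others lay below all Control libraries. The fitted difference was -5.14% with a 95% confidence interval that includes 0 (-10.7 to 0.792), and the log2 fold change was -0.08 with a standard error of 0.042 (adjusted p = 0.289, edgeR).

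C5ar1 (ENSMUSG00000049130, chromosome 7 from 16246743 to 16259540, minus strand) read 339, 331, 426 and 391 CPM in Control and 416, 416, 447 and 453 CPM in So(d18:1) libraries. The Control libraries were spread, with replicates 1 and 2 low, and replicate 3 alone reached the So(d18:1) range. The means were 372.0 ± 45.0 and 432.9 ± 19.7 CPM (SD, n = 4), a fitted difference of 16.4% (95% confidence interval 4.35 to 29.8), with the smallest p of the tested members. Its log2 fold change of 0.22 (SE 0.072) did not pass (adjusted p = 0.0863, edgeR). Without Control replicate 3, C5ar1 passed at 0.29 on the log2 scale (adjusted p = 0.00166, edgeR). It passed also by DESeq2 (adjusted p = 0.0272) and by limma-voom (adjusted p = 0.0426).

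The balance of the receptors, as the ratio of C3ar1 to C5ar1 per length, was 2.53, 2.63, 2.06 and 2.13 in Control and 1.94, 1.87, 1.88 and 1.85 in So(d18:1) libraries. Every So(d18:1) library was below every Control library, and the So(d18:1) ratios lay closer together (1.88 ± 0.041 against 2.34 ± 0.286, SD, n = 4). The ratio is a description and was not tested. It combines receptor genes that each overlapped between the groups. C5ar2, the other receptor for C5a, stood at 27.6 ± 1.58 CPM in Control libraries against 28.9 ± 1.28 CPM (SD, n = 4; log2 fold change 0.07, adjusted p = 0.58, edgeR) and is named here after its values were seen.

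Libraries of one group differed in the same way for several members. Control replicate 3 was the highest Control library for 7 of 7 tested members, and Control replicate 2 the lowest for 6 of 7. For Cfp (487.0 CPM against 486.1 in Control replicate 4) and C3ar1 (1468 CPM against 1458 in Control replicate 2) the lead was slight. How often these libraries were the extremes over all genes tested was not counted. Among So(d18:1) libraries replicate 2 was the lowest for 6 of 7 and replicate 4 the highest for 5 of 7. These were members with lower as well as members with higher So(d18:1) means. The most counted macrophage marker, the lysozyme gene Lyz2, was likewise highest among Control libraries in replicate 3 (22264 CPM) and lowest among So(d18:1) libraries in replicate 2 (16779 CPM), and its sum with the other markers followed it. Not all macrophage markers did: in Control replicate 3 Itgam was the lowest of the Control libraries (398.3 CPM), and Adgre1, at 2182 CPM, was below replicates 1 and 2. The part of such differences in the members' values was not tested. With Control replicate 3 left out, the members at an unadjusted p under 0.05 were 2 instead of 6, C5ar1 and Cfp. Over all genes tested the share was 19.9% in that fit, against 23.4% with all 8 libraries. In none of the 17 alternative settings did the fold change of a tested member change sign.

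**Figure D3:**
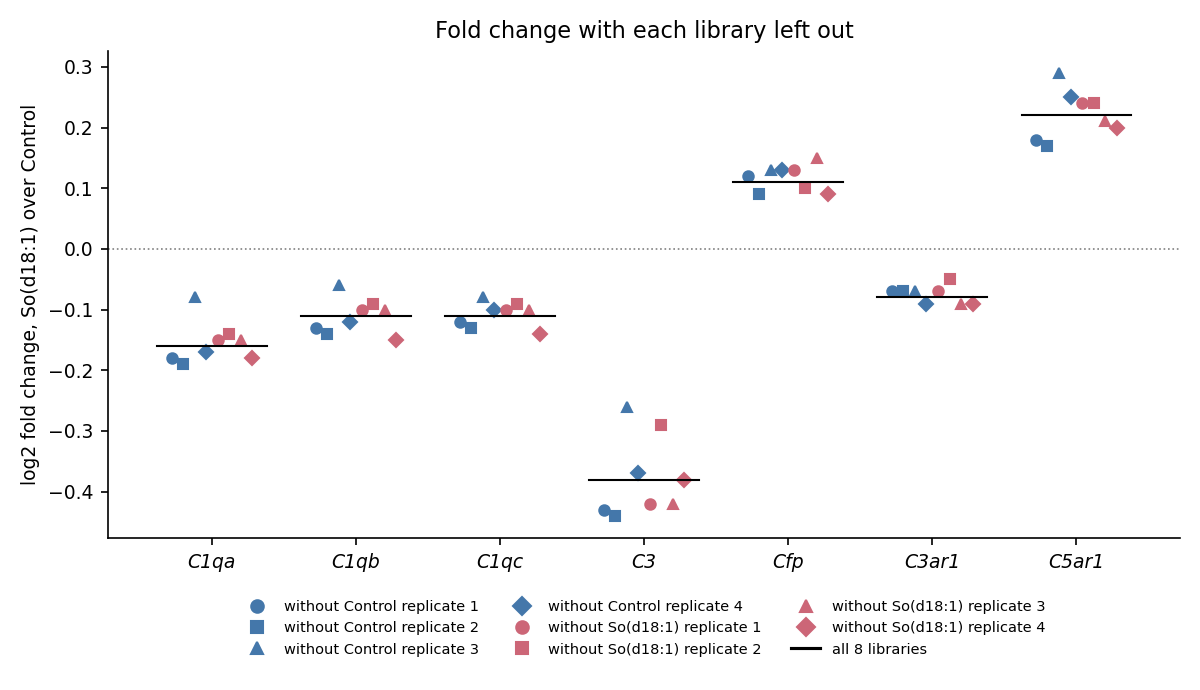
Fold change on the log2 scale of the 7 tested genes with each library left out in turn, where the symbol gives the replicate left out and the colour its group, and black lines are the values from all 8 libraries. C1qa runs from -0.19 to -0.08, C3 from -0.44 to -0.26 and C5ar1 from 0.17 to 0.29, and without Control replicate 3 the C1q chains are nearest to 0 and C5ar1 is farthest from it.

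The pattern over the 8 libraries was compared between genes by the root mean square difference of log2 CPM, each gene centred on its own mean, among 11556 genes with a mean log2 CPM of at least 1. C1qb was near C1qc (0.033, rank 2 seen from C1qb and rank 25 seen from C1qc). C1qa was near C1qb (0.038, rank 6 seen from C1qa and rank 12 seen from C1qb). C1qa and C1qc differed by 0.056 (rank 82 seen from C1qa and rank 411 seen from C1qc), slightly more than C3ar1 and C1qc (0.053). For scale, the genes themselves varied around their means by 0.116 (C1qa), 0.096 (C1qb), 0.075 (C1qc) and 0.054 (C3ar1). The distance between C3ar1 and C1qc was thus about as large as the variation of C3ar1 itself, and does not show a shared pattern. The genes outside the set nearest to C1qa were Lap3 (0.016), an aminopeptidase, Pcna (0.031), the sliding clamp of DNA replication, and Hspa9 (0.032), a mitochondrial chaperone, none of which passed the test. Those nearest to C5ar1 were Eno1 (0.041), a glycolytic enzyme, Gsr (0.044), glutathione reductase, and Rpn1 (0.047), a subunit of the oligosaccharyltransferase. Of these Gsr rose, by 0.25 on the log2 scale (adjusted p = 0.0145, edgeR). C5ar1 varied by 0.16 around its mean. These distances are descriptions over libraries that share depth and group.

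A list of 50 other complement genes was read beside the members, of which 23 had enough counts to be tested. Of the 23, 8 passed an adjusted p of 0.05 (34.8%, against 8.94% of all genes tested). Of these 1 was higher and 7 lower with So(d18:1), and the median log2 fold change was -0.15. The list was chosen with earlier results of these data known, so its share describes the list and is no test of it. Without So(d18:1) replicate 2 the count was 2, where 5.49% of all genes tested were called. The other 27 genes were not tested: no library held more than 11 reads of any of them, and 7 had no read at all. These included the alternative pathway protease Cfd, 6 of 7 terminal components and 6 of 8 fluid-phase regulators.

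In the classical and lectin pathways 3 of 6 tested genes fell and none rose. C4b, the complement component cleaved by C1s, fell from 9.35 ± 1.35 to 6.82 ± 0.679 CPM (SD, n = 4), and its log2 fold change was -0.46 (SE 0.12, adjusted p = 0.0186, edgeR). It shares 34.57% of its 50-base words with C4a, so the split of reads between them is uncertain, and it did not pass without Control replicate 3, without So(d18:1) replicate 2 or without So(d18:1) replicate 4 (adjusted p up to 0.0795). Fcnb, a ficolin that recognises sugars and acetylated surfaces, fell from 14.4 to 10.6 CPM (log2 fold change -0.44, adjusted p = 0.0104) and passed with any single library left out. Colec12, a collectin-like scavenger receptor and the most counted of the class, fell from 25.8 to 21.7 CPM (log2 fold change -0.25, adjusted p = 0.0308). With 1 library left out Colec12 passed in 2 of 8 fits, those without Control replicate 1 and without So(d18:1) replicate 4, with an adjusted p of up to 0.0936 (edgeR).

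Among the terminal components C8g was the single gene tested, at 3.81 CPM in Control against 2.86 CPM in So(d18:1) libraries (log2 fold change -0.42, adjusted p = 0.129, edgeR). Of 4 membrane regulators tested 1 fell, Cd55, which speeds the decay of convertases, from 1.87 to 1.07 CPM (log2 fold change -0.81, adjusted p = 0.0368, edgeR). With 1 library left out Cd55 passed in 2 of 8 fits, those without Control replicate 2 and without So(d18:1) replicate 3, and its adjusted p was highest, 0.142, without Control replicate 3. Cr1l, the rodent regulator Crry and the most counted of the class, stood at 98.3 and 101.4 CPM (log2 fold change 0.05, adjusted p = 0.565, edgeR).

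Among 10 other receptors and binding proteins 3 passed. Vsig4, a macrophage receptor for C3b and iC3b, fell from 2.53 ± 0.535 to 1.31 ± 0.175 CPM (SD, n = 4), and its log2 fold change was -0.96 (SE 0.21, adjusted p = 0.0068, edgeR). It passed with any single library left out. Cd93, once described as a receptor for C1q, fell from 851.9 ± 18.1 to 765.2 ± 10.6 CPM (log2 fold change -0.15, adjusted p = 0.0164) and did not pass without Control replicate 1, without Control replicate 4 or without So(d18:1) replicate 2 (adjusted p up to 0.0669). Itgam, the alpha chain of complement receptor 3, rose from 420.3 ± 20.3 to 477.7 ± 17.8 CPM (log2 fold change 0.18, adjusted p = 0.0119), and did not pass without So(d18:1) replicate 2 (adjusted p = 0.0556, edgeR). Of its exon bases 68.67% overlap Gm49368 on the same strand, and its level is uncertain for that reason. Lrp1, a large endocytic receptor that also binds C1q and the most counted of the class, was at 1648 CPM in Control against 1609 CPM in So(d18:1) libraries (log2 fold change -0.03, adjusted p = 0.671, edgeR).

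**Figure D4:**
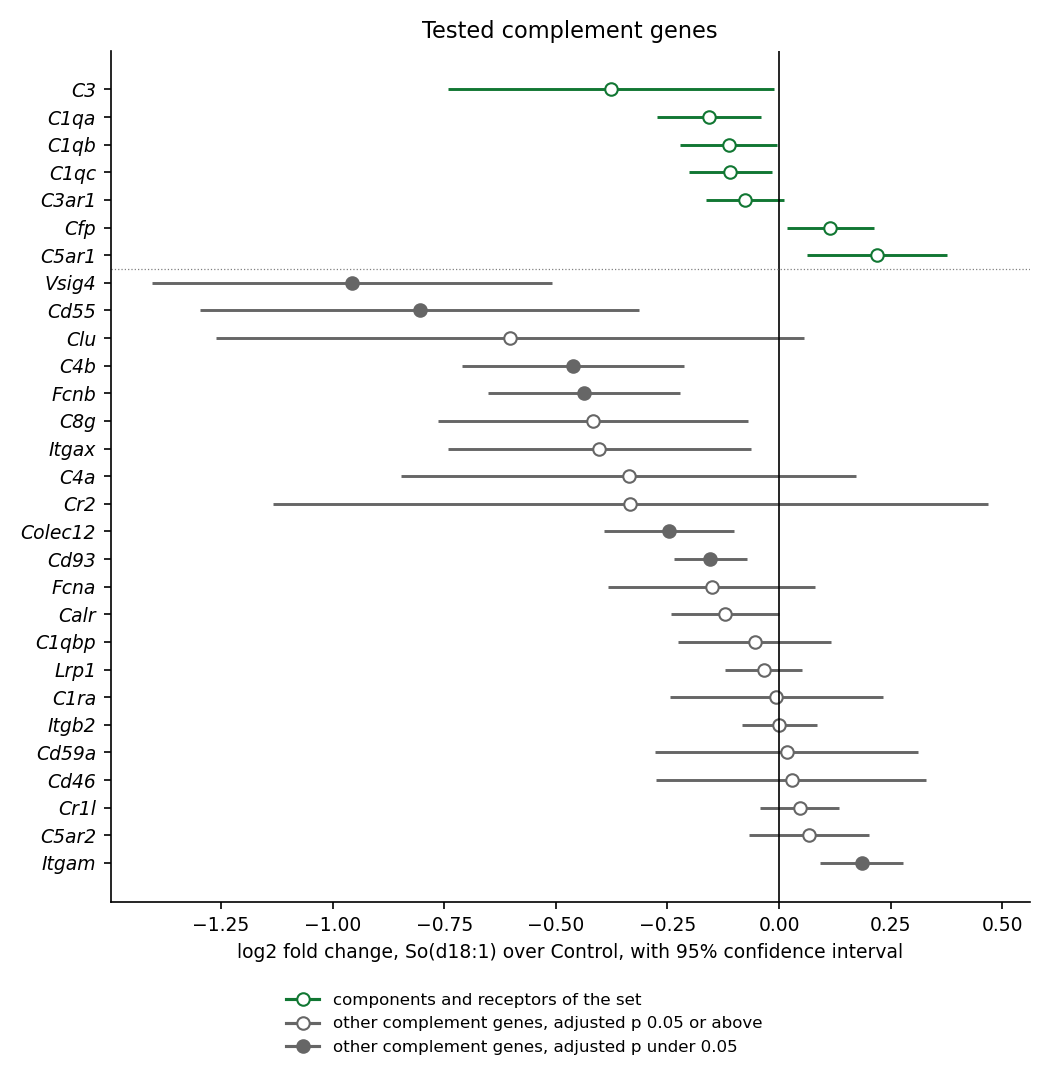
Fold change on the log2 scale, So(d18:1) over Control, with 95% confidence intervals for the 7 tested members (green) and the tested genes of the other complement list that are reported here (grey), where filled symbols mark an adjusted p under 0.05. All members are open symbols between -0.38 and 0.22, and the filled symbols run from -0.96 for Vsig4 to 0.18 for Itgam.

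Of 12 transcription factors listed because macrophage or complement genes are known to depend on them, 12 were tested and 4 passed, 2 higher and 2 lower (33.3%, against 8.94% of all genes tested, 3.87% higher and 5.07% lower), with a median log2 fold change of 0.04. This list, too, was chosen with earlier results of these data known, so its share is no test of it. Maf, a factor of differentiated macrophages, fell from 800.7 ± 7.91 to 681.6 ± 18.3 CPM (SD, n = 4), and its log2 fold change was -0.23 (SE 0.040, adjusted p = 6.3e-04, edgeR). Nr1h3, the oxysterol receptor LXR-alpha, fell from 13.3 to 8.75 CPM (log2 fold change -0.60, adjusted p = 0.0104). Irf1, a factor of interferon responses, rose from 94.7 to 112.0 CPM (log2 fold change 0.24, adjusted p = 0.00693). These 3 passed with any single library left out. Cebpd, a C/EBP factor of acute-phase genes, rose from 33.9 to 40.0 CPM (log2 fold change 0.24, adjusted p = 0.025), and did not pass without replicate 1 or replicate 2 of either group (adjusted p up to 0.0809, edgeR).

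Short motifs of such factors were searched on both strands of the 250 bases before the RefSeq start (GRCm38.p6) of the 6 members that had an entry, C1qb, C1qc, C3, Cfp, C3ar1 and C5ar1. The MAF half-site TGCTGA occurred in 4 of the 6, those of C1qb and C3 shown above and those of C3ar1 and C5ar1, and in 16.1% of 32851 promoter windows of the same length. The PU.1 core GAGGAA occurred in C1qb and C1qc (23.3% of all windows), the C/EBP motif TTGCNNAA in C3 (9.56%) and the NF-kB consensus in C1qc (3.9%). Some windows reach into exons annotated for the gene itself. In the C1qc window 151 of the 250 bases are such exon bases, the NF-kB match among them. The C5ar1 window holds 28 exon bases and the C3ar1 window 4. The GAS motif TTCNNNGAA of STAT proteins (7.02%) was in none of the 6 windows, and the Cfp window held no match to any of these letters. The genes whose window held the MAF half-site differed in direction, with C1qb, C3 and C3ar1 lower on average and C5ar1 higher, none of them past the test. A match describes the letters of the window and not binding.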

How the data were processed

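RNA-seq counts of 8 libraries (4 Control, 4 So(d18:1)) were analysed. The authors deposited whole-number read counts per Ensembl gene, not normalized. Per the labels, Trim Galore 0.6.7 removed adaptors, HISAT2 2.2.1 aligned the reads to mm10 and featureCounts 2.0.1 counted them. Strand and multi-mapping settings are not given in the sources used here. Column names gave the library of each column. The model was edgeR 4.0.16 in R 4.3.3 (filterByExpr, TMM, robust quasi-likelihood test), fitted over all genes, with Benjamini-Hochberg adjustment. Symbols were found for 52081 of 55357 identifiers. Identifiers without one held 0.169% to 0.325% of counts. Permutation tests were exact and two-sided. TPM used the deposited gene lengths. The fit was first tested on simulated counts. The alternatives were other scalings (DESeq2 size factors, upper quartile, library size), no filter, a minimum of 10 counts per library, the replicate block, limma-voom (limma 3.58.1), the exact test, DESeq2 1.42.0, and each library left out. The precision is set by 4 libraries per group, and read counts add counting error.

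The members and lists were chosen with earlier results of these data known. Genes were named by a rule: all members, every listed complement gene or factor with an adjusted p under 0.05, the most counted tested gene of each class, and the 3 genes nearest in pattern to the 2 members of smallest p. Counts are over the whole lists, and some listed genes are not reported here.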

Additional observations from a re-analysis of the deposited data

Results flagged for a closer look

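In 46 groups of 4 libraries, those of 23 genes (the 8 members and the listed complement genes and factors chosen by the naming rule), no library stood apart by Dixon's test at its 95% critical value, where chance alone would give about 2.3.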

How the results depend on the processing

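All tested members kept their direction in all 17 alternative settings. Members with an adjusted p under 0.05 numbered 0 with all 8 libraries, 0 to 1 with one library left out, 3 with no filter on low counts (C1qa at -0.15, C5ar1 at 0.22, Cfb at -1.9 on the log2 scale), 3 with the replicate block (C1qa at -0.15, C3 at -0.37, C5ar1 at 0.23), 2 by limma-voom (C3 at -0.37, C5ar1 at 0.23), 2 by edgeR's exact test (C3 at -0.38, C5ar1 at 0.22) and 1 by DESeq2 (C5ar1 at 0.22). The other 3 scalings and the minimum of 10 counts gave 0. Of all genes tested, 6.14% were called with no filter and 12.3% with the replicate block. The stricter limit of an adjusted p under 0.01 was counted with all 8 libraries in edgeR's quasi-likelihood test only, where no member passed it. With one library left out the log2 fold change ran from -0.19 to -0.08 for C1qa and from 0.17 to 0.29 for C5ar1. The libraries that decided a call were Control replicate 2 (C1qa), Control replicate 3 (C5ar1), and Control replicate 4 and So(d18:1) replicate 3 (Cfb, which then entered the test). Cfb passed the filter in such fits only through Control replicates 1 to 3 (10, 12 and 20 reads), in the group where it was higher. Its calls with one library left out rest on that selection and are no support for a difference. Members past an unadjusted p under 0.05 and 1.5-fold numbered 1 with no filter and 0 to 1 with one library left out, each time Cfb. Of all genes tested 4.32% passed that limit with no filter, and 3.22% to 4.51% with one library left out. Members at an unadjusted p under 0.05, a count added after seeing the data, numbered 2 to 6 with one library left out and 5 to 7 in the other settings. The shares of all genes tested were 18.7% to 23.8% and 15.3% to 25.2%. Other complement genes called numbered 2 to 7 with one library left out, lowest without So(d18:1) replicate 2, and transcription factors 3 to 4. The share of all genes called in these fits was also lowest without So(d18:1) replicate 2, at 5.49%. It was highest without Control replicate 2, at 9.37%, against 8.94% with all 8 libraries. Over all genes the replicate block called 1784 genes against 1298. Deviations of same-numbered libraries correlated between -0.00351 and 0.1 over all genes tested. Such a correlation is also lowered by noise in genes of few counts, so it cannot decide whether the numbers pair the libraries. The labels do not say either, and the main fit treats the libraries as unpaired. The causes of these differences were not tested. The depth limits Cfb, with 47 reads in Control and 11 in So(d18:1) libraries, and 4 libraries a group limit the others: the 95% intervals of C1qb, C1qc, C3 and Cfp ended within 1.22% of 0.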
